A study of Mus musculus with 12 samples.

Results

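The comparison described here sets the 2 RNA-seq libraries labelled Th1 NFATc1/ΔS against the 2 labelled Th1 WT, 4 of the 12 libraries of the study. They were chosen by their labels alone, and each pair shares a day of culture, 2.5 or 3.5. The study grew mouse CD4+ T cells from lymph node and spleen of C57BL/6 wild-type mice or of C57BL/6 NFATc1/ΔS mice. All cultures were stimulated with anti-CD3 and anti-CD28. Th1 cultures also received IL-12 and anti-IL-4 in RPMI medium, Th2 cultures IL-4 and anti-IFN-γ in RPMI, and Th17 cultures TGFβ, IL-6 and both antibodies in IMDM with less anti-CD3. Each combination of cell type, genotype and day is 1 library of poly(A) RNA. Nothing in the labels ties a library to its own animal or culture. The p-values therefore measure no more than the spread between these libraries, which may be technical.

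NFATc1 is a transcription factor that calcineurin activates when calcium rises after T cell receptor stimulation, and it binds the promoters of many cytokine genes. SUMO, a small protein attached to lysines of other proteins, modifies NFATc1. ΔS names an NFATc1 whose SUMO attachment sites are changed. Th1 cells are the helper T cells that IL-12 and the transcription factor T-bet direct to make interferon-γ.

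The Th1 libraries held 14502711 and 14820783 gene reads in WT at days 2.5 and 3.5, and 15282341 and 16861345 in NFATc1/ΔS, within the range of the series, 13417121 to 17774400. Uniquely mapped reads made up 78.95 to 81.37% of the reads in all 12 libraries. Intronic reads took 3.02% and 3.77% of the WT and 2.50% and 4.34% of the NFATc1/ΔS Th1 reads at days 2.5 and 3.5. Reads are counted over the whole gene, so the counts of Nfatc1 do not check the genotype labels. Levels below are counts scaled to library size (CPM) in the order WT day 2.5, WT day 3.5, NFATc1/ΔS day 2.5 and NFATc1/ΔS day 3.5, unless stated. Differences are on the log2 scale, NFATc1/ΔS minus WT, with the standard error of the fit. Within a day each group is 1 library. Its error is then taken from the Th2 and Th17 pairs of the same 12-library fit, on the assumption that Th1 libraries vary like them.

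All 4 Th1 libraries carried the T cell and Th1 markers. Tbx21, the gene of T-bet, was at 45.1, 34.6, 66.7 and 37.6 CPM, against 2.07 to 4.18 CPM in the Th2 and Th17 libraries. Ifng, interferon-γ, was at 53.7, 46.8, 187 and 38.2 CPM, against 1.33 to 4.42 CPM. Cd4 was at 631, 715, 497 and 689 CPM and Cd3e at 426, 340, 296 and 343 CPM.

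The libraries that go against their neighbours or labels are given before the results. Over 13998 genes, the log2 levels of the day 2.5 pair differed with an SD of 0.863, and 17.7% of genes differed by more than 2-fold. The day 3.5 pair differed with an SD of 0.417, and 3.36% of genes passed 2-fold, which is closer than any WT and NFATc1/ΔS pair of Th2 or Th17, with SDs of 0.464 to 0.490. The counts of the 2 libraries of day 3.5 differed by more than sampling: their median chi-square per gene was 1.28, against 0.455 from sampling alone. The Th2 and Th17 pairs had values of 1.42 to 2.59. Whether the 2 libraries came from the same culture or RNA was not tested. The library labelled WT day 2.5 lay nearest to the Th17 NFATc1/ΔS and WT libraries of day 3.5, with SDs of 0.596 and 0.602, and farther from either Th1 library of day 3.5, at 0.891 and 0.866. The library labelled NFATc1/ΔS day 2.5 lay at 1.09 and 1.12 from the WT and NFATc1/ΔS Th1 libraries of day 3.5. Within Th2 and Th17 the 2 days of 1 genotype lay 0.588 to 0.631 apart.

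**Figure D1:**
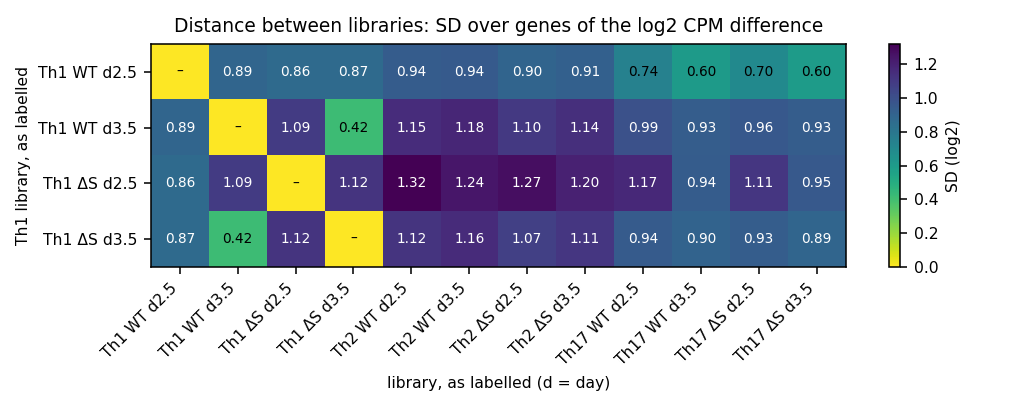
SD of the log2 CPM differences between libraries over 13998 genes, for each Th1 library (rows) against all 12 (columns), darker for larger SDs. The Th1 day 3.5 pair lies at 0.417, the Th1 day 2.5 pair at 0.863, and both libraries of day 2.5 lie far from both of day 3.5.

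Part of the distance within the day 2.5 pair belonged to 1 library. The library labelled NFATc1/ΔS day 2.5 stood more than 2-fold beyond all other Th1 libraries in 1373 genes, 9.81% of those compared, 495 above and 878 below. The library labelled WT day 2.5 did so in 354 genes, 2.53%, and the WT and NFATc1/ΔS libraries of day 3.5 in 109 and 115 genes.

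At day 2.5 the pair differed widely, across many genes and many of the gene lists. By the quasi-likelihood test of edgeR, adjusted after Benjamini and Hochberg, 2761 of 13998 genes were higher in the library labelled NFATc1/ΔS (19.7%) and 2341 were lower (16.7%). These shares are the background for the member counts that follow. DESeq2 called 2247 genes, and edgeR with a minimum log2 change of 0.5 called 2019. A library holds many cells, so fewer cells of a type and less RNA per cell cannot be told apart in any of these differences.

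**Figure D2:**
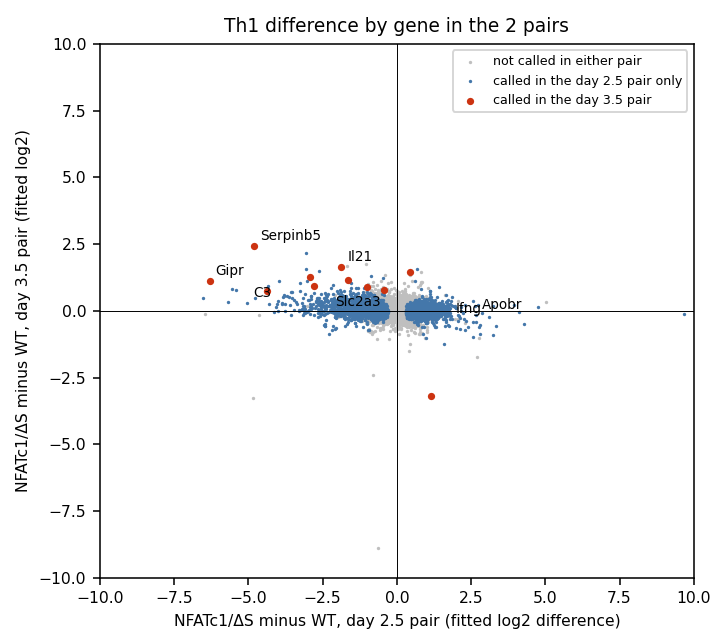
Each point is 1 of 10792 genes with a mean log2 CPM of at least 1 over the Th1 libraries, with its log2 difference (NFATc1/ΔS minus WT) at day 2.5 on the x axis and at day 3.5 on the y axis. The 4717 genes called at day 2.5 alone spread along the x axis, and 11 genes were called at day 3.5.

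Cytokine genes moved both ways at day 2.5, and Ifng, Il13, Il4 and Il2 were among those higher in the library labelled NFATc1/ΔS. Ifng (ENSMUSG00000055170, GRCm38 chromosome 10, 118441046 to 118445892) was 1.80 ± 0.15 higher there (edgeR adjusted p = 1.69e-06), and that library alone stood above the other 3 Th1 libraries, which lay between 38.2 and 53.7 CPM. Il13, a Th2 cytokine, was at 13.9, 16.8, 43.9 and 13.4 CPM and was 1.65 ± 0.14 higher (edgeR adjusted p = 1.41e-06). Il4, which drives Th2 cells, was at 2.71, 3.98, 9.25 and 3.92 CPM and was 1.77 ± 0.27 higher (edgeR adjusted p = 0.000192). Il2, the T cell growth factor, was at 2.05, 2.80, 8.20 and 3.02 CPM and was 2.00 ± 0.46 higher (edgeR adjusted p = 0.00548, but 0.106 by DESeq2). In each of these 4 genes the other 3 libraries lay close together, whatever their genotype label. Of the 29 cytokine genes tested, 8 were higher and 7 lower, Il21 among the lower at -1.87. Among the 27 NFAT target genes tested, 7 were higher and 7 lower, with a median of -0.02 against 0 for all genes.

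The promoters of these 4 cytokine genes are shown because NFAT factors bind the short core GGAAA. Each run covers 250 bases before to 50 after a RefSeq start site of build GRCm38.p6, 5′ to 3′ on the strand of the gene, with GGAAA or its reverse complement TTTCC in capitals. Il4 has 2 start sites in the table.

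Ifng, chr10:118440796-118441095, plus strand: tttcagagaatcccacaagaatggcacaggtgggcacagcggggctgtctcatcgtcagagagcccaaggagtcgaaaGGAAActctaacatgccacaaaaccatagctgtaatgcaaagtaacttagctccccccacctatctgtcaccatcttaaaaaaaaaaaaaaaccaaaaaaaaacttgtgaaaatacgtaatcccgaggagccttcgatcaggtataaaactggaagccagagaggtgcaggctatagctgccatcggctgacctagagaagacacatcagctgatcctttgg
Il4, chr11:53617289-53617588, minus strand: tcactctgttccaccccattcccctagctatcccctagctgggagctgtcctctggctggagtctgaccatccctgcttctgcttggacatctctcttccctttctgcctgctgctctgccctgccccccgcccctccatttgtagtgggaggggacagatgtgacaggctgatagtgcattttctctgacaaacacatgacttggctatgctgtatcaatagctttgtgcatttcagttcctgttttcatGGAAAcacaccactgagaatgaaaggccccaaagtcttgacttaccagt
Il4, chr11:53618616-53618915, minus strand: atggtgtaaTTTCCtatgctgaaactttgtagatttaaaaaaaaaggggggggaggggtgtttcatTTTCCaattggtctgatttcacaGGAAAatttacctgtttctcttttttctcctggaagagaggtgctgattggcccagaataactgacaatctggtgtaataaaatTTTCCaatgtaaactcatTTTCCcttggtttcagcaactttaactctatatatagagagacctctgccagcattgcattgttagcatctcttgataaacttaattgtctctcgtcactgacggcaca
Il13, chr11:53634653-53634952, minus strand: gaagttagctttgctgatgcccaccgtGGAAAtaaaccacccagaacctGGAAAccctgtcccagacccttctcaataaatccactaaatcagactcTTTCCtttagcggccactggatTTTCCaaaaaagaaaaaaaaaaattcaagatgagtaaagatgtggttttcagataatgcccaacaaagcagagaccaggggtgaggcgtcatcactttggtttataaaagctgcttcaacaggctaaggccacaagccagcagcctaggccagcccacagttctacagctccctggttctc
Il2, chr3:37125905-37126204, minus strand: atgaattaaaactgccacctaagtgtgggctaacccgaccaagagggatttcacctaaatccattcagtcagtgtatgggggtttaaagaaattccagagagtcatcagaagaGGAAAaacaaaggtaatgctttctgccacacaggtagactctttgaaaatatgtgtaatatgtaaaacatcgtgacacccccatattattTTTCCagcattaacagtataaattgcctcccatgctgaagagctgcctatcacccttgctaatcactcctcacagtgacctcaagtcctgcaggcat

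Ifng held 1 match, the Il4 windows 1 and 5, Il13 4 and Il2 2. Of all 32851 promoter windows 61.3% held a match, so the core alone is common. It was in 27 of the 29 windows of the cytokine list (93.1%) and in 27 of the 32 of the NFAT target list (84.4%). In the other lists the share ran from 11.1% (erythroid markers) to 84.2% (Th2), with Th17 at 82.6% and interferon response at 81.5%. The share of the NFAT target list was therefore not particular to it. A match is a string of letters in this window, not a bound site.

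Receptors and regulators of the interferon-γ program moved both ways. Tbx21 was 0.57 ± 0.16 higher (edgeR adjusted p = 0.014, but 0.413 by DESeq2). Il12rb2, the IL-12 receptor chain, was at 441, 336, 254 and 387 CPM and had a difference of -0.80 ± 0.12 (edgeR adjusted p = 0.000131). Irf1, an interferon-induced transcription factor, was at 65.4, 65.6, 128 and 74.8 CPM. Its difference was 0.97, past the threshold by edgeR's test (adjusted p = 8.48e-05). Socs3, an inhibitor of cytokine signalling, was at 170, 85.3, 22.8 and 126 CPM and had a difference of -2.89 ± 0.17. Of the 24 Th1 genes tested, 10 were higher and 5 lower, and Eomes, a T-box factor, rose by 2.57. The interferon response list had 7 genes higher and 4 lower of 26, led by Iigp1 (4.63, 6.52, 28.9 and 7.44 CPM), a GTPase of cell-autonomous defence, with Stat2 at -1.70.

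**Figure D3:**
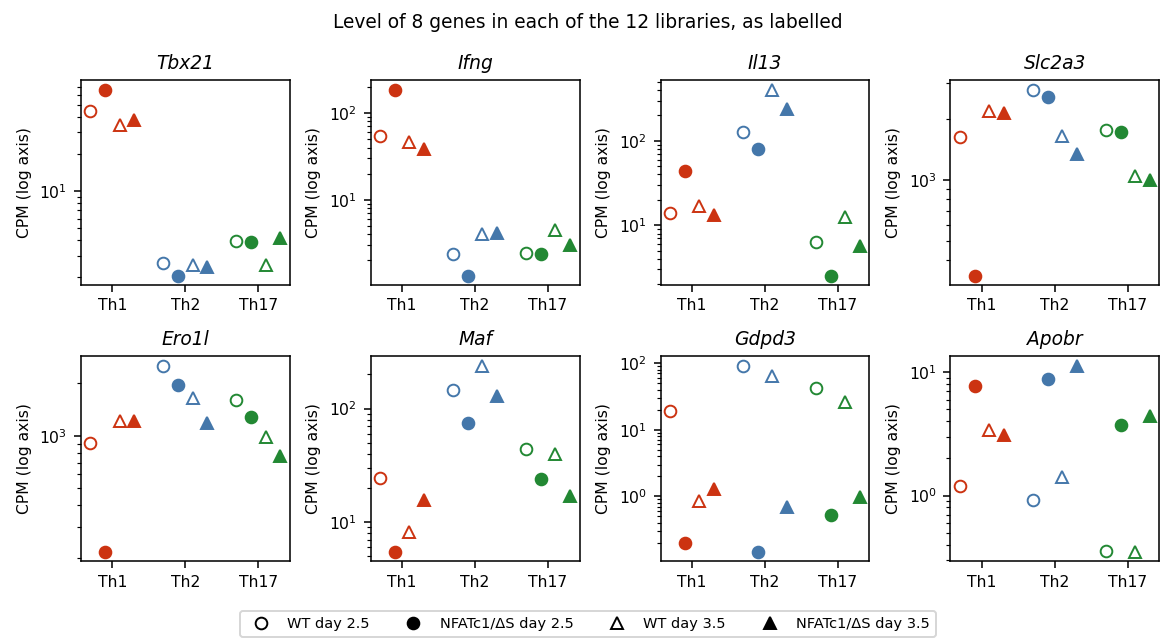
Level in CPM (log axis) of 8 genes, 1 point per library by cell type, open for WT and filled for NFATc1/ΔS, circles for day 2.5 and triangles for day 3.5. The library labelled NFATc1/ΔS day 2.5 stands apart for Ifng (187 CPM against 38.2 to 53.7) and for Slc2a3.

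Genes of glycolysis and of the hypoxia response were lower in the library labelled NFATc1/ΔS day 2.5. Of 22 tested, 15 were lower and 0 higher, with a median of -0.54. Slc2a3, a glucose transporter, was at 1630, 2172, 337 and 2130 CPM and had a difference of -2.28 ± 0.15 (edgeR adjusted p = 2.33e-07). Ero1l, an oxidase of the endoplasmic reticulum, was at 907, 1215, 216 and 1217 CPM and had a difference of -2.07 ± 0.15. Egln3, an oxygen-sensing hydroxylase, was at 968, 814, 382 and 910 CPM, at -1.34 ± 0.15. For all 3 genes that library was below the other Th1 libraries, which lay close together. In the Th2 and Th17 libraries the same list moved with the day: 19 of 22 genes were lower and 0 higher at day 3.5 than at day 2.5, against 18.7% lower of all genes, and there Slc2a3 had a difference of -0.81 and Ero1l of -0.69. The Egln3 promoter is shown for its hypoxia response core, ACGTG in capitals on the minus strand of the gene. ACGTG or its reverse complement CACGT was in 17 of the 31 windows of this list (54.8%) and in 19.6% of all windows. In the other lists the share ran from 0% (aryl hydrocarbon receptor response) to 50% (co-inhibitory receptors, 6 of 12 windows).

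Egln3, chr12:54203825-54204124, minus strand: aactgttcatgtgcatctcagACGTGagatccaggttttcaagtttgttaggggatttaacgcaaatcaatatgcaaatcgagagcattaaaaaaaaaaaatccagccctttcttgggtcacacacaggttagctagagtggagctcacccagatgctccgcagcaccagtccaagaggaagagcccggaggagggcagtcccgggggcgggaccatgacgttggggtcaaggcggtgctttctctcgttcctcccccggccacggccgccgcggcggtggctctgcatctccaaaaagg

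Cell cycle genes were higher in the same library. Of 29 tested, 19 were higher and 1 lower, with a median of 0.68. Cdc6, which licenses replication origins, was at 38.0, 44.7, 89.4 and 45.1 CPM and was 1.23 ± 0.14 higher (edgeR adjusted p = 1.87e-05). Ccne2 and Ccne1, the E cyclins of S phase entry, were 1.18 and 1.07 higher. Mki67, a proliferation marker, differed by -0.04 and did not pass. In Th2 and Th17 the cell cycle list was higher at day 3.5 in 26 of 29 genes, against 19.9% of all genes, and lower in 0.

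Th17 genes and several genes of TGF-β signalling were lower in the library labelled NFATc1/ΔS day 2.5 than in its WT partner. Of 21 Th17 genes tested, 8 were lower and 0 higher. Il21, a cytokine of Th17 and follicular helper cells, was at 73.3, 9.07, 20.1 and 28.3 CPM, at -1.87 ± 0.15. Maf, a transcription factor of IL-10 and Th17 programs, was at 24.6, 8.15, 5.51 and 15.8 CPM, at -2.16 ± 0.19 (edgeR adjusted p = 1.84e-06). For both genes the library labelled WT day 2.5 was the highest of the Th1 libraries. Of the Th17 list, that library stood more than 2-fold above all other Th1 libraries in 4 genes and below them in 1. The library labelled NFATc1/ΔS day 2.5 stood below all others in 1 gene and above in 0. Of 15 TGF-β response genes, 7 were lower and 1 higher, among them Smad7, an inhibitor of the pathway, at -1.26. Il17f had no read in the library labelled WT day 2.5 and at most 0.328 CPM in any Th1 library, so it has no fold.

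Lists of T cell identity and state went different ways. T cell identity genes were lower in 8 of 13 and higher in 0, led by Cd3d at -0.77. Of 16 naive and memory genes, 11 were lower and 3 higher, among them Il7r, the IL-7 receptor, at -1.07 and Bcl2, which protects from cell death, at -0.98. Of 21 regulatory T cell genes, 9 were lower and 3 higher. Follicular helper genes were higher in 7 and lower in 3 of 17, and co-inhibitory receptor genes higher in 4 and lower in 2 of 13. Lag3, an inhibitory receptor, was at 797, 450, 266 and 474 CPM, at -1.58, and Nrp1 was 1.82 higher. Foxp3 itself was at 4.10, 20.5, 5.97 and 20.4 CPM, but only 20.2% of its reads were unique, and it did not pass. Egr1, an immediate-early factor of receptor signalling, was at 369, 184, 86.8 and 174 CPM, at -2.09 ± 0.13. Fosl2, an AP-1 subunit, was at 180, 207, 37.5 and 238 CPM, at -2.26 ± 0.14.

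NFAT and SUMO pathway genes were tested because the protein in question belongs to both. Nfatc1 (ENSMUSG00000033016, GRCm38 chromosome 18, 80606205 to 80713071) was at 271, 184, 238 and 178 CPM. Its difference was -0.19 ± 0.11 at day 2.5, which did not pass edgeR's test (adjusted p = 0.22), and -0.05 at day 3.5. Of 21 NFAT pathway genes, 5 were higher and 2 lower, with Ppp3cc, a calcineurin subunit, at -0.59. Of 20 SUMO pathway genes, 10 were higher and 2 lower, with a median of 0.31. Senp3, a SUMO protease, was 0.85 ± 0.12 higher, Uba2, of the SUMO-activating enzyme, 0.68 higher, and Senp7 was at -0.75. Sumo3 is uncertain, since only 6.5% of its reads were unique.

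**Figure D4:**
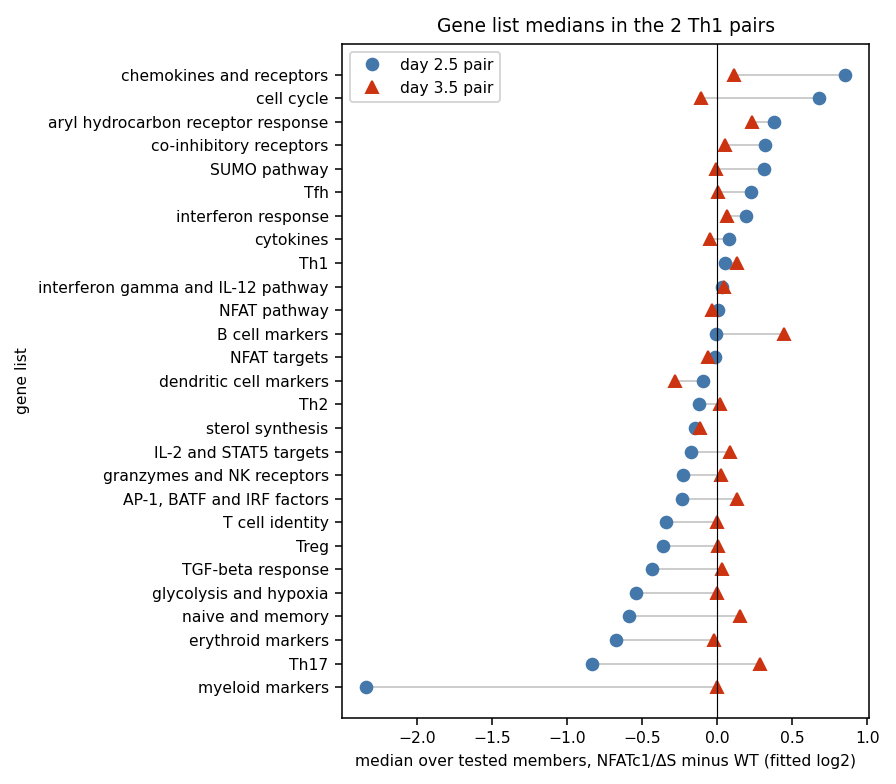
Median log2 difference (NFATc1/ΔS minus WT) of each gene list at day 2.5 and at day 3.5, as circles and triangles, with a line at 0. The glycolysis and hypoxia list lies at -0.54 and the cell cycle list at 0.68 at day 2.5, and at day 3.5 the cell cycle list lies at -0.11 and the Th17 list at 0.28.

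Genes with large changes at day 2.5, named by the rule, had many other functions. Higher in NFATc1/ΔS were Olfr56 (0.397, 11.2, 11.0 and 12.4 CPM, a difference of 4.77 ± 0.45) and Nefh, a neurofilament (1.32, 12.5, 23.0 and 12.2 CPM, 4.11). For both, the library labelled WT day 2.5 stood below the other 3. Camk2b rose by 3.94 on total reads but differed by 0.13 on exon reads, where it did not pass. Stra6, a retinol transporter, was at 11.4, 27.6, 97.8 and 23.2 CPM and was 3.10 higher, with the library labelled NFATc1/ΔS day 2.5 above the other 3. Lower were Dntt, the terminal transferase of early lymphocytes (34.0, 6.72, 0.722 and 12.0 CPM, -5.54 ± 0.24), and C3, the complement component (50.0, 32.6, 1.51 and 39.7 CPM, -5.04 ± 0.19). Itga7, a laminin-binding integrin, was at 81.0, 96.6, 3.87 and 162 CPM, and Gipr, the receptor of an incretin hormone, at 16.3, 15.5, 0.197 and 34.0 CPM. Cxcr4, a chemokine receptor, was at 47.3, 31.8, 5.45 and 32.4 CPM. In C3, Itga7, Gipr and Cxcr4 the library labelled NFATc1/ΔS day 2.5 was the only low one. Stac2, lower by the largest fitted value among genes that met the naming rule, was at 6.74, 8.48, 0.0656 and 11.8 CPM. It had 1 read in that library, a counted ratio of 103 with a 95% counting interval of 18 to 4100. Gipr had 3 reads there, a counted ratio of 82.6 with a 95% counting interval of 27.9 to 403.

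Markers of other cells were compared in the day 2.5 pair too, beside 19.7% higher and 16.7% lower of all genes. The summed level of the myeloid list was 18.2, 4.44, 3.87 and 4.64 CPM, with 3 of its 5 tested genes lower in NFATc1/ΔS and 4 of its 13 genes at 0 in every Th1 library. In the Th2 and Th17 libraries it summed to 10.5 to 19.7 CPM. The dendritic cell list summed to 143, 86.3, 41.1 and 93.1 CPM, most of it H2-Ab1, while Itgax, which marks dendritic cells, had at most 0.0652 CPM. The B cell list summed to 54.4, 22.0, 70.5 and 22.2 CPM, with 2 of 13 genes at 0. By edgeR's test 2 of 8 dendritic cell genes were lower and 0 higher. Of 9 B cell genes 1 was higher and 1 lower. The counts of these 2 lists were not far from the shares of all genes. Cd8a was at 22.9, 8.22, 6.23 and 10.3 CPM. The part of other cells in the day 2.5 differences was not tested.

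At day 3.5 the pair hardly differed. By edgeR's test 14 of 13998 genes were higher in NFATc1/ΔS (0.1%) and 3 were lower (0.0214%). Of these 17 genes, 9 met the naming rule and all 9 were higher. The other 8 had 0 to 11.2% unique reads and are uncertain, Cacna2d3 with 6.77 among them.

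Il21 was 1.64 ± 0.18 higher at day 3.5 (edgeR adjusted p = 0.00114), at 28.3 against 9.07 CPM. Serpinf1, a secreted serpin, was at 94.9, 20.4, 12.5 and 48.4 CPM and was 1.25 ± 0.15 higher (edgeR adjusted p = 0.0032). Sdc3, a syndecan, was 0.94 ± 0.12 higher, Igfbp4 0.88 ± 0.14 and Itga7 0.75 ± 0.12. Gipr was 1.14 ± 0.17 higher and Serpinb5 2.42 ± 0.42 higher (edgeR adjusted p = 0.048). Pik3c2a passed on total reads at 0.79 but not on unique or exon reads, where it differed by 0.14 and 0.19. Every one of the 9 genes that met the naming rule was lower in the library labelled NFATc1/ΔS at day 2.5, Pik3c2a at -0.44 among them. These genes were chosen by the day 3.5 pair. Across all 13998 genes the differences of the 2 pairs correlated with r = -0.12, and across 8885 genes with a mean log2 CPM of at least 3 with r = -0.239, as a description across genes. No gene that met the naming rule was lower and passed at day 3.5. Gzmc, a granzyme, was at 27.0, 12.5, 52.7 and 6.21 CPM, at -1.01 (edgeR adjusted p = 0.0933, and 0.00259 to 0.134 when libraries of 1 cell type and day were left out). The count at day 3.5 rested on the libraries that set the error: without the Th2 libraries of day 2.5 it was 62, without those of day 3.5 57, and without the Th17 libraries of day 2.5 or 3.5 it was 28 and 38. The lists had at most 1 member called, and Slc2a3, Cdc6 and Ifng differed by -0.03, 0.01 and -0.30 at day 3.5 with none passing.

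The 2 pairs differed from each other in many genes. By edgeR's test of the day 3.5 difference minus the day 2.5 difference, 1601 genes were higher (11.4%) and 1858 lower (13.3%). Gipr had the largest value by the naming rule, 7.45 ± 0.44, then Serpinb5 at 7.23 ± 0.61. Ifng differed by -2.09, Il13 by -1.98, Maf by 3.11 and Il12rb2 by 1.00. Nefh differed by -4.14 and C3 by 5.33.

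Over both days, with day as the pairing, 0 of 12591 genes passed edgeR's test (0% called), 71 had an unadjusted p under 0.05, and the smallest adjusted p was 0.854. DESeq2 called 1 gene and limma-voom 0. The biological coefficient of variation over the 4 libraries was 27.6%, and 1 residual degree of freedom is left. It was 7.26% in the fit of 12, where the spread comes from Th2 and Th17 alone. The tests of single pairs assume that smaller spread for the Th1 libraries too. Among genes that met the naming rule, the smallest p in each direction belonged to Dgcr8, a microRNA processing factor, at 1.18 ± 0.36, and to Ephx1, an epoxide hydrolase, at -0.96, each with an edgeR adjusted p of 0.999. Ifng was at 0.74 ± 0.57 and Il13 at 0.65 ± 0.50, both within the spread. No difference shared by both Th1 pairs was detectable with these 4 libraries. With either pair left out, 1 library per group remains, so the test over both days cannot be run. The counts of the single pairs came from the fit of 12 libraries, over 13998 genes and with the spread of Th2 and Th17. They are not leave-out results of the test over both days.

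Genes that follow genotype in the other cell types bear on the Th1 labels. In the 8 Th2 and Th17 libraries edgeR called 89 genes higher (0.68%) and 168 lower (1.28%) in NFATc1/ΔS. Of these, 23 had a fitted change of at least 2-fold and the same direction in all 4 Th2 and Th17 pairs. In the Th1 day 2.5 pair 19 of the 23 went the same way, 13 passed that way and 1 passed the opposite way. At day 3.5 12 of the 23 went the same way and 0 passed. Of all 257 genes called in Th2 and Th17, 170 (66.1%) went the same way in the day 2.5 pair, where 114 passed that way and 39 the opposite way. Of the 89 higher ones alone, 23 passed the same way and 24 the opposite way. At day 3.5 93 of the 257 (36.2%) went the same way. Gdpd3 (GRCm38 chromosome 7, 126766334 to 126775649), a phosphodiesterase, was at 42.3 and 26.4 CPM in Th17 WT and at 0.523 and 0.979 CPM in Th17 NFATc1/ΔS. In Th2 it was at 91.5 and 64.8 CPM in WT and at 0.148 and 0.694 CPM in NFATc1/ΔS. In Th1 it was at 19.2, 0.848, 0.197 and 1.29 CPM, so the library labelled Th1 WT day 3.5 was at the level of NFATc1/ΔS libraries. Apobr, about 0.35 to 1.41 CPM in WT and 3.74 to 11.3 CPM in NFATc1/ΔS of the other types, was at 1.19, 3.39, 7.67 and 3.08 CPM in Th1. On both genes the Th1 WT day 3.5 library lay with the NFATc1/ΔS libraries or between the groups, and the Th1 WT day 2.5 library with WT. Apobr (chromosome 7, 126584942 to 126589112) lies close to Gdpd3, so the 2 genes are neighbours and not separate readings of the labels. Slc14a1, a genotype gene on chromosome 18, was at 0.914 to 3.08 CPM in WT of the other types. In NFATc1/ΔS of those types it was at 2.64 to 6.39 CPM, so the ranges overlapped. Its Th1 levels were 1.65, 7.44, 3.87 and 7.11 CPM, and both day 3.5 libraries lay above those ranges. Cd24a, a glycoprotein of immature cells, was at 17.2, 19.4, 2.49 and 17.4 CPM and Ermn at 20.4, 10.4, 5.25 and 10.0 CPM, and for both the 2 libraries of day 3.5 were near equal. Other genotype genes set both day 3.5 libraries beside the WT library of day 2.5. Mid1, a ubiquitin ligase, was at 8.13, 10.1, 23.8 and 8.23 CPM, and Slamf6, a receptor of T cells, at 13.9, 7.57, 27.4 and 8.95 CPM. The genotype genes therefore gave no single reading of the day 3.5 labels.

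Th1 libraries were also set beside the day difference of Th2 and Th17. This comparison was added after the data were seen. In the 8 Th2 and Th17 libraries, edgeR called 107 genes with a fitted change between the days of at least 2-fold, the same direction in all 4 series of days and a mean log2 CPM of at least 3, 38 higher and 69 lower at day 3.5. Of the 69, 67 were higher at day 3.5 than at day 2.5 in the Th1 NFATc1/ΔS libraries, with a median of 2.23. In Th1 WT 43 were higher and 26 lower, with a median of 0.39. Only 11 of the 107 (10.3%) moved in Th1 NFATc1/ΔS as in Th2 and Th17, and 37 (34.6%) in Th1 WT. Over all 5054 genes called for day, the shares were 23.4% and 38.8%. Of the 69 genes, 68 were lower in the library labelled NFATc1/ΔS day 2.5 than in its WT partner, with a median of -1.99. Across 8885 genes with a mean log2 CPM of at least 3, the day 2.5 pair correlated with the day difference of Th2 and Th17 with r = 0.472 and rho = 0.464. That value is across genes, which are not independent replicates, and the libraries of the 2 differences are not shared. The same day difference correlated with that of Th1 NFATc1/ΔS with r = -0.499 and with that of Th1 WT with r = -0.157. Of genes higher in the day 2.5 pair, 41.6% were higher at day 3.5 in Th2 and Th17 (44.1% of that list), and of those lower, 43.5% were lower there (41.6% of that list). The opposite direction held for 5.29% and 8.76%. Over all 13086 genes tested in Th2 and Th17, 2604 were higher and 2450 lower at day 3.5, 19.9% and 18.7%. Whether library labels, days or genotype set these patterns cannot be told apart with 1 library per combination.

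**Figure D5:**
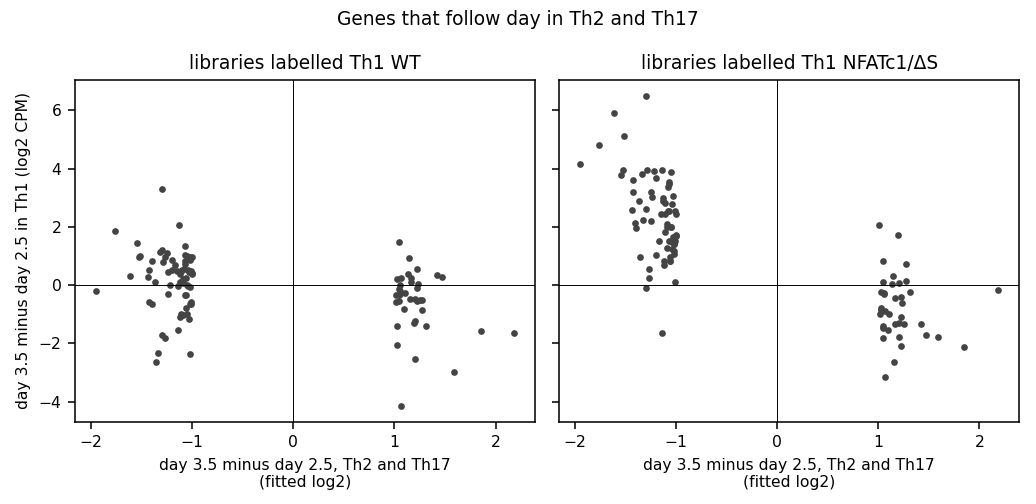
Day 3.5 minus day 2.5 log2 differences of the 107 genes that change with day in Th2 and Th17, in the Th1 WT (left) and Th1 NFATc1/ΔS (right) libraries on the y axis, against the fitted log2 day difference of Th2 and Th17 on the x axis. Of the 69 genes lower at day 3.5 in Th2 and Th17, 67 are higher in Th1 NFATc1/ΔS and 43 in Th1 WT.

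The Th1 libraries of day 3.5 differed from the Th17 libraries of that day in 1975 genes that were higher (14.1%) and 2111 lower (15.1%) by edgeR's test. Of the genes lower in the day 2.5 pair, 26% were also lower in Th1 than Th17 (28.8% of that list), and 19.6% were higher (23.3%). Of the genes higher in the day 2.5 pair, 12.3% were higher (17.2%) and 15.3% lower (20% of that list). The day 2.5 difference and this one correlated with r = 0.072 across all 13998 genes as a description across genes.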

How the data were processed

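The authors deposited 1 table of read counts per gene and library, for 41457 genes, aligned to GRCm38 per the submitters' processing notes. For the aligner and counter, names were not given in the sources used here. Total gene reads, which include introns and reads that map to several genes, were the main measure, and unique and exon reads were alternatives. Genes passing edgeR's filter (minimum count 10, minimum total 15) were scaled by TMM and tested by edgeR's quasi-likelihood test (R 4.3.3, edgeR 4.0.16, robust) with Benjamini-Hochberg adjustment at 0.05. DESeq2 1.42.0 and limma-voom (limma 3.58.1) were alternatives. Both days were tested in the 4 Th1 libraries, with day pairing the libraries per the labels. Single pairs were tested in 1 fit of 12 libraries. That fit gives each Th1 library its own coefficient and leaves 2 residual degrees of freedom from Th2 and Th17. CPM used the effective library sizes, and log2 levels a prior count of 2. The scripts were tested on simulated data.

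Named genes were the 12 largest changes each way among genes past the threshold, with a mean log2 CPM of at least 1 over Th1, at least 50% unique reads and no clone name. Where fewer than 5 passed, the 5 of smallest p were taken and said not to pass. A fixed set of followed genes, up to 4 members of each of 27 lists and up to 12 genotype genes each way were added. The genes and lists were chosen with earlier results of these data known. Cacna2d3, Gzmb, Itgax and Mki67 were named outside that rule, after their values were seen. Some genes that met the rule are not reported here. Promoters came from RefSeq.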

Additional observations from a re-analysis of the deposited data

Results flagged for a closer look

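The 2 Th1 pairs of libraries, 1 per day, differed from each other in 3459 genes by edgeR's test of the difference. Values are the log2 difference at day 3.5 minus that at day 2.5. Positive values were found for Gipr (7.45), Gdpd3 (7.15), Serpinb5 (7.23), Stac2 (6.99), Dntt (6.37), Stc1 (6.21), Myh7b (6.00), C3 (5.33), Kctd11 (5.27), Fam183b (5.25), Itga7 (5.13), Slc41a2 (5.08), Maf (3.11), Prdm1 (1.40) and Il12rb2 (1.00). Negative values were found for Olfr56 (-4.62), Nefh (-4.14), Serpina3f (-3.91), Camk2b (-3.73), Tbc1d4 (-3.67), Eomes (-3.54), Mical2 (-3.37), Stra6 (-3.35), Serpina3g (-3.34), Lad1 (-3.10), Fosb (-3.00), Ppic (-2.97), Apobr (-2.82), Ifng (-2.09), Il13 (-1.98) and Il4 (-1.79). Camk2b did not keep its value on exon reads.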

How the results depend on the processing

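Leaving out 1 pair of libraries at a time gave 5107 to 5490 genes at day 2.5, 15 to 62 at day 3.5, 3726 to 3939 for the difference between the pairs, and 17 to 5102 for both days. DESeq2 called 1, 2247, 9 and 1122 genes for both days, day 2.5, day 3.5 and their difference. With no read filter 12 and 63 genes passed for both days and day 3.5. A minimum log2 change of 0.5 gave 2019, 7 and 1474 for day 2.5, day 3.5 and the difference. At day 3.5, limma-voom gave 10, no robust fit 6, and errors from Th2 alone or Th17 alone 39 and 64. Without the replicate block, 0 genes passed over both days and 10 had an unadjusted p under 0.05, and the 12-library fit also called 0, with 718. The share of genes beyond 2-fold was 14.4% and 1.56% at days 2.5 and 3.5 with a prior count of 5, and 11.5% and 0.158% over genes of mean log2 CPM of at least 3. Of all genes called for day in Th2 and Th17, 23.4% moved the same way in Th1 NFATc1/ΔS. The difference between pairs of Camk2b turned to 0.15 on exon reads (edgeR adjusted p = 0.955). For named genes, 8 fits at day 2.5 and 23 at day 3.5 lost the call, and 14 at day 3.5 gained it, Gzmc and Tbc1d4 among them. Serpinb5 at day 3.5 lost its call in DESeq2, limma-voom, the non-robust fit and others. At day 3.5 Gipr lost its call in 3 settings, Igfbp4 and Itga7 in 2 each and Sdc3 in 1. The cause was not tested. Depth limits genes of few reads, and 1 library per combination limits every result.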

Other observations

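Gzmb and Nkg7 levels in Th1 differed more between the days than between the genotype labels. Gzmb, the main granzyme of effector cells, was at 1966 and 1770 CPM in the WT and NFATc1/ΔS libraries of day 2.5 and at 689 and 692 CPM in those of day 3.5. Nkg7, a cytotoxic granule protein, was at 152 and 83.5 CPM at day 2.5 and at 26.8 and 24.4 CPM at day 3.5. The difference between the days was not tested in Th1. Of the 16 genes of the list, 3 were higher and 5 lower at day 2.5 by edgeR's test. Ctsw, a protease of cytotoxic cells, was at 97.1, 19.7, 24.4 and 25.2 CPM, so the library labelled WT day 2.5 stood above the other 3.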
